A study of Homo sapiens with 15 samples.

Results

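RASD1, RRAD, RND1, RND3, RHOB and RHOU encode small GTPases whose transcripts respond to stimuli, and RGS2 encodes a regulator of heterotrimeric G proteins. These 7 genes were followed in A549, a human lung adenocarcinoma cell line of epithelial origin. They were found through the gene symbols of the array's probe annotation, which gave 14 of the 54675 probe sets. Of these, 10 passed the filter on low signals, which retained 39744 probe sets in all (at least 3 of 15 arrays brighter than 40% of the probe sets on that array). Every one of the 7 genes had at least 1 tested probe set. The genes were chosen by measured values, with earlier results of these arrays in view, namely the differences of RGS2 and RRAD with dexamethasone and with mifepristone, of RND1 with mifepristone, and of RASD1 with the match polyamide. The comparisons of dexamethasone with non-treated cells, and of mifepristone or match polyamide with dexamethasone, are therefore given as descriptions without p-values, and calls counted in them support nothing.

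Small GTPases of the Ras superfamily switch between a GTP-bound and a GDP-bound form, and the bound form decides which effector proteins they can hold. RHOB, RHOU, RND1 and RND3 act on actin, adhesion and vesicle traffic. RND1 and RND3 hardly hydrolyse GTP, so their activity follows the amount of protein, and both oppose actomyosin contraction. RRAD is an RGK protein that inhibits voltage-gated calcium channels, and RASD1 is a Ras-like protein first described as induced by dexamethasone. RGS2 speeds GTP hydrolysis on G alpha subunits, chiefly of the Gq class, and so shortens signalling from receptors. Dexamethasone is a synthetic agonist of the glucocorticoid receptor, and mifepristone is an antagonist of it.

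Total RNA was measured in 5 groups of 3 arrays, all from A549 cells kept in F12K medium with charcoal-treated serum, which is low in steroids. The groups were non-treated cells, cells given dexamethasone for 6 hours, and cells given 6 hours of dexamethasone together with 48 hours of a second compound, either mifepristone, a match polyamide or a mismatch polyamide. Polyamides are synthetic ligands of the DNA minor groove, and the labels name the 2 compounds only as match and mismatch. The sources used here give no doses, and neither polyamide was used without dexamethasone. The labels leave unsaid whether the 3 arrays of a group stem from different cultures, so errors and p-values cover the spread between arrays alone, and that spread may be technical.

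The labelled cell type was checked against marker genes. All 6 epithelial markers lay above the 40th percentile in every group, with KRT18 between 8251 and 9713 in signal. The epithelial markers did not stay level under the polyamides, since 2 of the 6 were called higher and 4 lower with match, and 2 higher and 2 lower with mismatch, against dexamethasone. EPCAM rose from 167 to 606 with match and 486 with mismatch, and CDH1 fell from 382 to 124 and 161. The summed signal of 6 fibroblast markers ran from 130 to 198 on the non-treated and dexamethasone arrays, from 160 to 215 with mifepristone, from 192 to 241 with mismatch and from 278 to 324 with match, most of it COL1A1. The 5 leukocyte markers summed to between 61.5 and 115 over all arrays, with PTPRC from 0.478 to 13.7, and ITGAM rose from 21.4 with dexamethasone to 51.7 with match and 51.9 with mismatch. The 4 endothelial markers summed to between 39.0 and 78.1, with CDH5 from 0.597 to 15.2 and PECAM1 from 26.8 to 48.0. The part of these markers in the results was not tested. FKBP5, a textbook target of the glucocorticoid receptor, had a mean signal of 231 without treatment and 2733 with dexamethasone. Deposited signals were not scaled alike between arrays and were quantile normalized, as described with the processing. In bulk RNA, fewer cells of a kind and less RNA per cell cannot be told apart.

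Signals below are linear and quantile normalized, given for arrays 1, 2 and 3 of a group in that order, and they are compared within a probe set only. Differences are on the log2(signal + 16) scale with the standard error (SE) of a limma fit over all 15 arrays, and this scale understates the difference of a gene with low signals. Probe sets were called at a Benjamini-Hochberg adjusted p under 0.05 over all 39744.

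RGS2 and RHOB had the most alike patterns among the members (r = 0.956 over the 15 arrays), so the stretches before their start sites are shown, together with that of RASD1, which was high in the polyamide groups alone. Each is the 250 bases upstream of a RefSeq start site in GRCh38.p14, written 5′ to 3′ on the strand of the gene. Capitals mark CCAAT boxes and TGACG half-sites of the cAMP response element, on either strand, so that ATTGG and CGTCA are the same motifs read from the other strand. RGS2 lies at chr1:192808789-192809038 on the plus strand, RHOB at chr2:20446824-20447073 on the plus strand and RASD1 at chr17:17496396-17496645 on the minus strand.
RGS2: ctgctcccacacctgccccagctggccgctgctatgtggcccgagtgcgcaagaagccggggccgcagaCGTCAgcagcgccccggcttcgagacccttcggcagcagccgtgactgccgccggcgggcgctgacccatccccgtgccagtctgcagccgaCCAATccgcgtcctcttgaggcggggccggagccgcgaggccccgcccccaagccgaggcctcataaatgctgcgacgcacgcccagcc
RHOB: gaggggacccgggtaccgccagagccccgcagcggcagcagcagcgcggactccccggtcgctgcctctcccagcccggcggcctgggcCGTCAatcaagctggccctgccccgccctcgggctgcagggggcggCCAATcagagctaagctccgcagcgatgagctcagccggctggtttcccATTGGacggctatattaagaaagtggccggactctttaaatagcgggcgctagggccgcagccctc
RASD1: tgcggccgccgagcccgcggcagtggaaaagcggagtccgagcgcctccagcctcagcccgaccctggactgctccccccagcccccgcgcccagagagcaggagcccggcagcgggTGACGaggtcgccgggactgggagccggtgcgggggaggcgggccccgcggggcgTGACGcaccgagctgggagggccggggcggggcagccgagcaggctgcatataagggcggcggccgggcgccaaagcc
RGS2 held 1 CCAAT box, 89 to 85 bases before its start, and 1 TGACG half-site 181 to 177 bases before it. RHOB held a CCAAT box in each orientation, at 115 to 111 and at 66 to 62 bases before the start, and a half-site at 161 to 157. RASD1 held 2 half-sites, at 133 to 129 and at 78 to 74 bases before the start. Over the 35116 RefSeq windows of the same length, 32.0% held CCAAT and 21.2% held TGACG on either strand. Of the 7 windows available for 5 of the members, 4 held CCAAT and 3 held TGACG. The 2 windows of RND3 overlap and hold the same CCAAT box, so by gene each motif stood in 3 of the 5. No window of RHOU or RND3 held TGACG, so the half-site was not shared by all members. The half-site of the glucocorticoid response element, AGAACA, stood in 12.4% of all windows and in 0 of these 7. The full palindromic element stood in 0.003% of all windows and in 0 of these 7. That says only that these letters are not within 250 bases upstream. The GC content was 72.8% for RGS2, 68.8% for RHOB and 78.0% for RASD1, against a median of 58.0% over all windows. It was 65.6% and 79.6% for the windows of RHOU, and 51.2% and 52.0%, below that median, for those of RND3. By the span of the RefSeq gene, 6 of the 7 members were shorter than the median of 28449 bases over 16520 protein-coding genes on the array. RASD1 spans 1959 bases, RHOB 2367 and RGS2 3237, and RHOU, at 102023, is the exception.

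**Figure D1:**
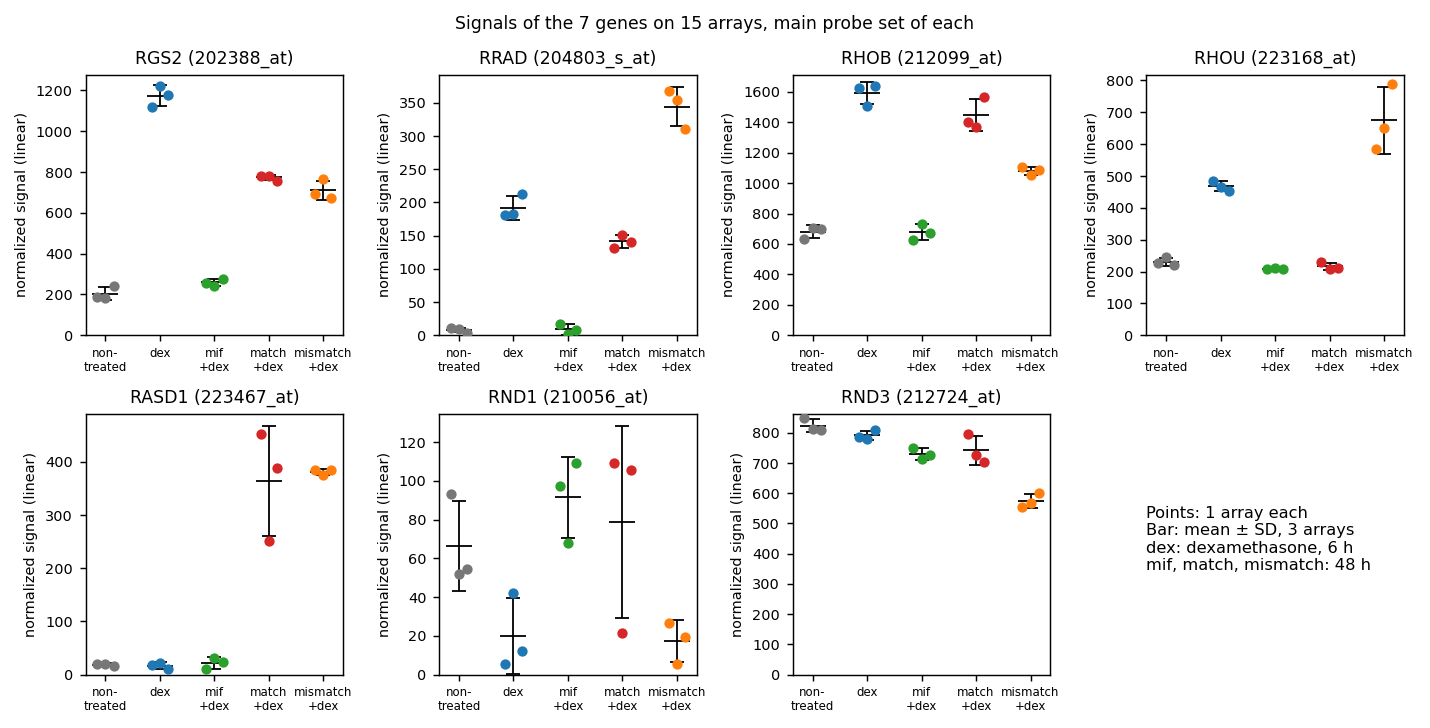
Quantile-normalized signal (linear axis from 0) of the main probe set of each of the 7 genes, by group, with 1 point per array and bars for the mean and SD of 3 arrays. RGS2, RRAD, RHOB and RHOU lie higher with dexamethasone than without treatment and low again with mifepristone, and RASD1 lies high in the 2 polyamide groups alone.

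With dexamethasone alone, 4 of the 7 genes (RRAD, RGS2, RHOB and RHOU) were past the threshold and higher than in non-treated cells, and the other 3 were not past it. Over all tested probe sets 4.85% were called, 2.56% higher and 2.29% lower. Nothing is read from the count, since this contrast served to pick members. The median difference over the 7 genes was 0.97, and it was -0.01 over all tested probe sets and -0.04 over all genes. With mifepristone added, the same 4 genes were lower than with dexamethasone, and RND1 was higher. Of all probe sets 3.55% were called there, 1.94% lower and 1.61% higher, and of all genes 5.29%, 2.76% lower and 2.53% higher.

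RGS2, the G protein regulator, had signals of 189, 184 and 241 in non-treated cells and of 1120.2, 1224 and 1176 with dexamethasone. With mifepristone plus dexamethasone the arrays read 258, 243 and 276. The 3 dexamethasone arrays stood above all others of the series, and the mifepristone arrays lay just above the non-treated ones without overlap. The difference between dexamethasone and non-treated cells was 2.44 (SE 0.09), the 17th highest of 39744 probe sets, and mifepristone differed from dexamethasone by -2.11. Mifepristone plus dexamethasone minus non-treated cells was 0.33 (95% interval 0.14 to 0.51 for this probe set alone), which was not past the threshold over all probe sets. It was 0.78 with the signals as deposited and 0.77 with spike-in scaling, past the threshold under both (limma adjusted p = 0.00768 and 0.0183). Without non-treated array 3 it came past the threshold as well (0.0366).

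Under the polyamides RGS2 read 782, 783 and 759 with match and 693, 764 and 672 with mismatch. Both groups lay between the mifepristone and the dexamethasone arrays, and they overlapped each other. Match minus dexamethasone was -0.59 for RGS2 (-0.35 with spike-in scaling), and match still lay 1.85 above non-treated cells. With mismatch it fell by 0.71 against dexamethasone (SE 0.09, limma adjusted p = 4.8e-06), a call kept under all 26 other settings. That test uses the same dexamethasone arrays as the comparisons through which RGS2 was picked, so it is not independent of the choice. No difference between match and mismatch was detected for RGS2 (0.13, 95% interval -0.06 to 0.31, limma adjusted p = 0.40).

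RRAD, the RGK inhibitor of calcium channels, was near the floor without hormone. Its main probe set read 10.3, 9.58 and 4.06 in non-treated cells, and 17.1, 1.44 and 8.25 with mifepristone plus dexamethasone. These signals lie around the 40th percentile of an array, so no fold is given against these groups. With dexamethasone the arrays read 181, 182 and 212, and both low groups lay entirely beneath them. The differences on the log2(signal + 16) scale were 3.12 (SE 0.18) between dexamethasone and non-treated cells and -3.10 between mifepristone and dexamethasone. Because 1 side of each lay near the floor, their size depends on the settings, from 1.83 to 4.50 and from -4.69 to -1.81.

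The polyamides moved RRAD apart. Its arrays read 132, 151 and 141 with match and 368, 354 and 311 with mismatch, so that the highest match array lay below every dexamethasone array and the lowest mismatch array above every one of them. The difference of match from dexamethasone was -0.40. RRAD rose with mismatch by 0.80 over dexamethasone (SE 0.18, limma adjusted p = 0.00235), and match minus mismatch was -1.19 (95% interval -1.57 to -0.82, limma adjusted p = 7.9e-05). With a pseudocount of 1 in place of 16 both calls were lost (adjusted p = 0.228 and 0.0682). On either RRAD probe set, mismatch against dexamethasone uses the same dexamethasone arrays as the comparisons through which RRAD was picked.

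The second RRAD probe set gave the same order. It read 112, 114 and 125 with dexamethasone, 87.1, 73.1 and 82.7 with match and 239, 262 and 231 with mismatch. Non-treated arrays lay between 1.01 and 1.76. Mismatch rose by 0.97 over dexamethasone (SE 0.16, limma adjusted p = 1.0e-04, but 0.0715 with a pseudocount of 1), and match minus mismatch was -1.42 (95% interval -1.75 to -1.10, adjusted p = 2.2e-06). Both RRAD probe sets correlated at r = 0.993 over the 15 arrays, which share their RNA and scaling. The remaining RRAD probe set was not tested, with signals from 0.884 to 16.1.

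**Figure D2:**
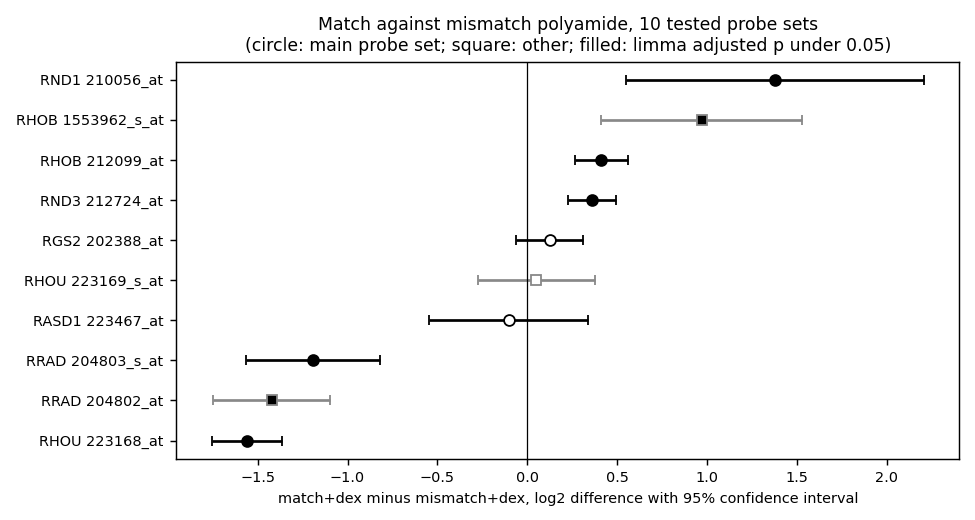
Difference of each tested probe set between the match and the mismatch group on the log2(signal + 16) scale, with 95% intervals from the limma fit over 15 arrays, circles for main and squares for other probe sets, filled where called. The main probe sets of RHOU (-1.56) and RRAD (-1.19) lie lower with match, and those of RND1 (1.38), RHOB (0.41) and RND3 (0.36) lie higher.

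RHOB, a small GTPase of endosomes, had signals of 629.9, 708 and 699 without treatment and of 1627, 1509.7 and 1637 with dexamethasone. With mifepristone it read 629, 731 and 674, within the range of the non-treated arrays except for 1 that lay above it and 1 just below it. Dexamethasone stood 1.21 (SE 0.07) above non-treated cells and mifepristone differed from dexamethasone by -1.21, so that mifepristone plus dexamethasone differed from non-treated cells by -0.00 (95% interval -0.15 to 0.14). Over the 26 other settings this last difference ran from -0.06 to 0.45, and it was called under 0 of them.

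RHOB read 1405, 1369 and 1568 with match, overlapping the dexamethasone arrays, and 1104, 1053 and 1087 with mismatch, below all of them. For the match group the difference from dexamethasone was -0.14. With mismatch RHOB fell by 0.55 against dexamethasone (SE 0.07, limma adjusted p = 7.3e-06), and it was 0.41 higher with match than with mismatch (95% interval 0.27 to 0.56, limma adjusted p = 0.00031). These calls depended on the scaling of the arrays. The mismatch difference was -0.34 (adjusted p = 0.159) with the signals as deposited and -0.44 (0.0877) with spike-in scaling. The difference between the polyamides was 0.25 (adjusted p = 0.425) as deposited and 0.24 (0.135) with median scaling.

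A second RHOB probe set varied more between arrays of a group. It read 80.8, 47.6 and 78.9 without treatment, 195, 209 and 164 with dexamethasone, and 72.9, 102 and 115 with mifepristone. With match it read 236, 123 and 234, and with mismatch 102, 47.3 and 139. Mifepristone differed from dexamethasone by -0.88, which was not past the threshold but came past it under 3 of 26 other settings. Mifepristone plus dexamethasone minus non-treated cells was 0.41, not past the threshold. It was 0.83 and past it with the signals as deposited. Mismatch minus dexamethasone was -0.96 (limma adjusted p = 0.0119, or 0.0964 without mismatch array 2), and match 0.97 above mismatch (95% interval 0.41 to 1.53, adjusted p = 0.0150). The latter call was lost without match array 1 (0.0705), match array 3 (0.0717) or mismatch array 2 (0.110), and without the variance trend (0.0562). Its correlation with the main probe set was r = 0.754 over 15 arrays. The 3 further RHOB probe sets were not tested, and their highest signals were 6.08, 7.26 and 13.2.

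RHOU, an atypical small GTPase related to CDC42 that acts on adhesion and the actin cytoskeleton, differed between the polyamides on its main probe set. Its main probe set read 226, 246 and 221 without treatment, 485, 466 and 453 with dexamethasone, and 207, 211 and 209 with mifepristone. The dexamethasone group lay above both others without overlap, with differences of 0.97 (SE 0.09) from non-treated cells and of -1.10 between mifepristone and dexamethasone. With match the arrays read 229.7, 209 and 212, and with mismatch 584, 652 and 789.5. The match arrays thus overlapped the non-treated ones, and the mismatch arrays stood above every other array of the series.

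Against dexamethasone, RHOU differed by -1.06 with match, and it rose by 0.50 with mismatch (SE 0.09, limma adjusted p = 0.00046). Match minus mismatch was -1.56 (95% interval -1.76 to -1.36, limma adjusted p = 1.1e-09), the 26th lowest of all probe sets in that comparison. This call held under all 26 other settings, with 6.5e-06 as the highest adjusted p among them. The difference between match and non-treated cells was -0.08 (95% interval -0.28 to 0.11), while mismatch lay 1.48 above non-treated cells.

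The second RHOU probe set did not show the same split. It read 86.2, 106 and 63.6 with dexamethasone, 75.2, 75.9 and 95.9 with match, and 92.7, 70.6 and 73.8 with mismatch. All 3 groups overlapped on it, and they stood above the non-treated arrays (39.8, 46.3 and 43.2). The difference between match and mismatch was 0.05 (95% interval -0.28 to 0.38, limma adjusted p = 0.88), and that between mismatch and dexamethasone was -0.08 (adjusted p = 0.80). Both RHOU probe sets correlated at r = 0.551 over 15 arrays, and the second was much dimmer. What each of them detects was not tested, and the split of RHOU between the polyamides rests on 1 probe set.

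**Figure D3:**
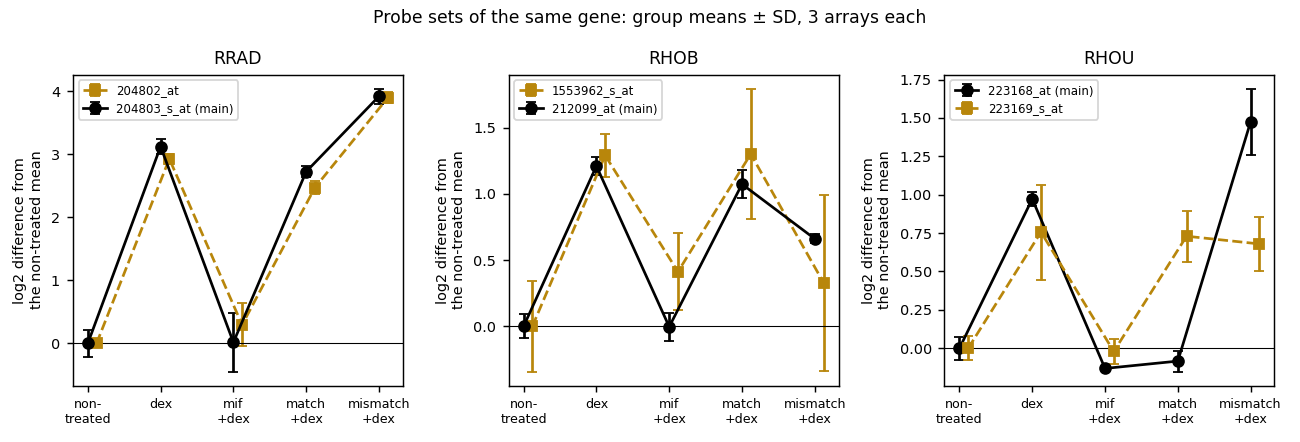
Difference of each group from the non-treated mean on the log2(signal + 16) scale for the 2 tested probe sets each of RRAD, RHOB and RHOU, as means with the SD of 3 arrays. Both RRAD probe sets give the same order of groups, and the 2 RHOU probe sets part company in the match group, where the main one lies at -0.08 and the other at 0.73.

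RASD1, the Ras-like GTPase named for its induction by dexamethasone, was low wherever no polyamide was present. It read 20.7, 18.9 and 15.1 without treatment, 17.3, 22.6 and 10.3 with dexamethasone, and 9.56, 31.0 and 24.1 with mifepristone plus dexamethasone. These 3 groups overlapped, and the difference between dexamethasone and non-treated cells was -0.08 (95% interval -0.52 to 0.36) at this single time point.

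With match the RASD1 arrays read 453, 251 and 389, and with mismatch 384, 375 and 385. Every polyamide array, from 251 upwards, lay above the highest array without a polyamide, at 31.0. Match stood 3.52 (SE 0.21) above dexamethasone. RASD1 rose with mismatch by 3.62 over dexamethasone (SE 0.21, limma adjusted p = 1.9e-10), a call kept under all 26 other settings, with differences from 2.47 to 4.49. This test shares the dexamethasone arrays with the match comparison through which RASD1 was picked. No difference between the polyamides was detected (-0.10, 95% interval -0.55 to 0.34, limma adjusted p = 0.81), and the SD of the signal was 103 with match and 5.36 with mismatch, 3 arrays each.

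RND1 and RND3, the opponents of contraction, did not follow the other members. RND1 read 93.4, 51.7 and 54.5 in non-treated cells, 5.25, 42.0 and 12.1 with dexamethasone, and 97.3, 68.1 and 109 with mifepristone. The dexamethasone arrays lay below both other groups, opposite to RGS2, RRAD, RHOB and RHOU, with a difference of -1.30 (SE 0.40) from non-treated cells that was not past the threshold but came past it under 6 of 26 other settings. Mifepristone stood 1.70 above dexamethasone, a difference that was past the threshold but not under 5 of the 26, namely without dexamethasone array 1 or 3, without mifepristone array 1 or 3 and without the variance trend.

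Under the polyamides RND1 read 109, 21.6 and 105 with match and 26.8, 5.27 and 19.6 with mismatch. Array 2 of each group was far lower than the other 2, and the groups overlapped through it. RND1 was 1.38 higher with match than with mismatch (95% interval 0.55 to 2.21, limma adjusted p = 0.0195). That call was lost without match array 1 or 3 (0.101 for each), without mismatch array 2 (0.106) and without the variance trend (0.0657). No difference of mismatch from dexamethasone was detected (-0.03, 95% interval -0.86 to 0.80, adjusted p = 0.97). It, too, uses the dexamethasone arrays of the mifepristone comparison through which RND1 was picked.

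RND3 was bright in every group. It read 848, 814 and 809 without treatment, 785, 781 and 809.6 with dexamethasone, 750.1, 712 and 726 with mifepristone, and 796, 727 and 704 with match. Only the mismatch arrays, at 555, 567 and 600.3, lay below all of these. On the normalized signals the mifepristone arrays lay below every non-treated and every dexamethasone array, with a difference of -0.12 from dexamethasone. This depended on the scaling. As deposited the mifepristone arrays read 928, 964 and 797, above the dexamethasone arrays (780, 666 and 687) and the non-treated ones (682, 759 and 761). Over the 26 other settings the difference between mifepristone and dexamethasone ran from -0.15 to 0.40. Match minus dexamethasone was -0.09, and -0.25 with median scaling. RND3 fell by 0.45 with mismatch against dexamethasone (SE 0.06, limma adjusted p = 2.1e-05) and was 0.36 higher with match than with mismatch (95% interval 0.23 to 0.49, limma adjusted p = 0.00043). Both calls were lost with the signals as deposited (-0.26, adjusted p = 0.325; 0.21, 0.523) and with spike-in scaling (-0.35, 0.214; 0.52, 0.0597), and the second also with median scaling (0.20, 0.122).

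Across the 7 genes, match and mismatch were compared as 1 pair of compounds at equal times, with doses not given. Relative to dexamethasone, 3 genes rose with mismatch (RASD1, RRAD and RHOU), 3 fell (RGS2, RHOB and RND3) and 1 was not past the test. Of all probe sets 22.9% were called there, 12% higher and 10.9% lower. By gene, as the members are counted, it was 29.7%, 17.9% higher and 11.8% lower. Between the polyamides 3 genes were called higher with match (RHOB, RND1 and RND3), 2 lower (RRAD and RHOU) and 2 not. Of all probe sets 16.9% were called there, 7.47% higher and 9.38% lower, and of all genes 22.9%, 9.43% higher and 13.5% lower. With the signals as deposited or with median scaling, 1 gene was called higher and 2 lower with match. The median over the 7 genes was -0.03 for mismatch against dexamethasone and 0.13 for match against mismatch. Over all tested probe sets these medians were 0.02 and 0.01, and over all genes 0.07 and -0.02. Against dexamethasone, 2 of the 7 were past the threshold and higher with match and 2 lower, and with median scaling 2 were higher and 5 lower. Of all probe sets 30.8% were called there, 15.9% higher and 14.9% lower, and of all genes 39%, 21.5% higher and 17.4% lower. The comparisons of match and of mismatch share the dexamethasone arrays, so that a common direction in them is not 2 separate observations.

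**Figure D4:**
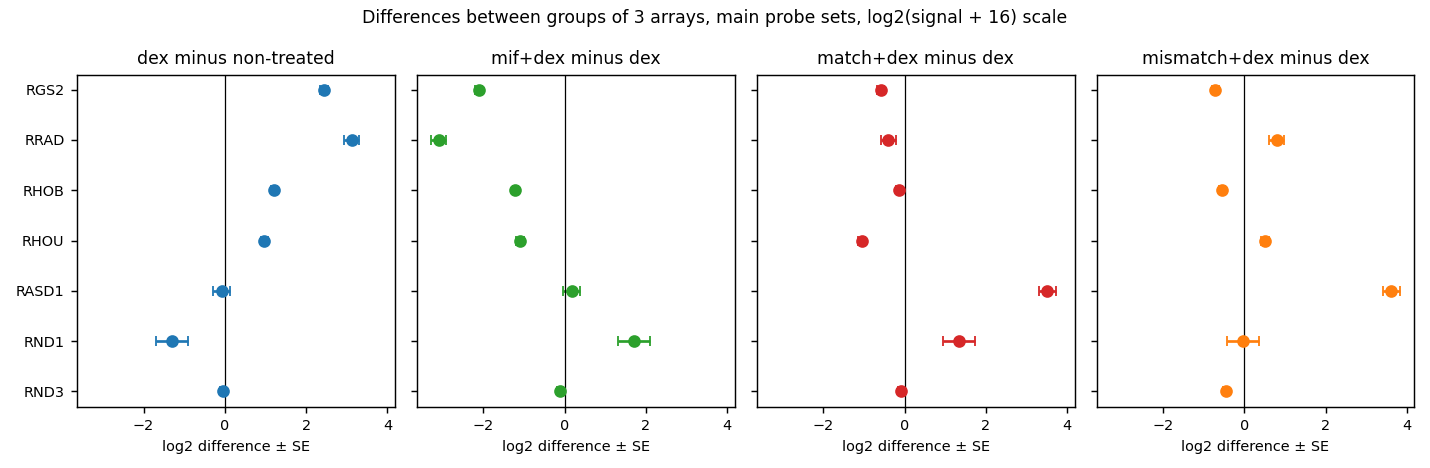
Difference on the log2(signal + 16) scale of each gene's main probe set for dexamethasone against non-treated cells and for each compound with dexamethasone against dexamethasone alone, with bars for the SE of the limma fit. The values for RHOU with match (-1.06) and mismatch (0.50) fall on opposite sides of 0, and those for RASD1 (3.52 and 3.62) lie side by side.

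Other Ras, RGK and RGS genes and partners of these proteins were described from lists, with the same fit. Over the 16358 genes with a main probe set, 6.80% were called with dexamethasone, 3.2% higher and 3.6% lower. With mismatch against dexamethasone it was 29.7%, 17.9% higher and 11.8% lower. Between the polyamides it was 22.9%, 9.43% higher and 13.5% lower with match. For the counts at an unadjusted limma p under 0.05 given below, no share over all genes was computed, so nothing is read from them.

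Among 28 tested Ras and RGK genes, 3 fell with dexamethasone and 0 rose by the limma test (6 lower and 1 higher at an unadjusted p under 0.05), and 1 fell as deposited or with spike-in scaling. GEM, an RGK protein like RRAD, fell from 160 to 78.7 (-0.89, SE 0.10, limma adjusted p = 3.9e-06), opposite in direction to RRAD, and with mifepristone it stood 0.61 above dexamethasone. With mismatch 4 of the 28 rose against dexamethasone. RAP2B, a Ras-like protein, went from 602 to 1487 (1.28, SE 0.06) with mismatch, and it averaged 1499.9 with match. RIT1, a Ras-like activator of stress kinases, was 0.76 higher with match than with mismatch (limma adjusted p = 9.3e-05).

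Of 12 tested RGS genes besides RGS2, 1 fell with dexamethasone (RGS17, -0.48, limma adjusted p = 0.0438), and under 15 of 26 other settings none did, each setting that left out a non-treated or dexamethasone array among them. In the fit reported here 4 were lower and 0 higher at an unadjusted p under 0.05. The median over these 12 was -0.17, and over all genes it was -0.04. With mismatch 3 of the 12 rose. RGS10 went from 283 to 415 (0.52), RGS14 from 40.6 to 73.9 (0.67) and RGS19 from 175 to 233 (0.38, lost with spike-in scaling).

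For the partners of these proteins, 7 of 26 G protein subunits fell with mismatch against dexamethasone and 0 rose by the limma test (7 and 0 at an unadjusted p under 0.05), and 2 fell as deposited or with spike-in scaling. GNAQ, the Gq alpha subunit on which RGS2 acts, fell from 446 to 174 (-1.29, SE 0.09, limma adjusted p = 3.9e-09) and averaged 127 with match. GNG12, a gamma subunit, fell by 0.92. Of 17 calcium channel subunits, kinases and adenylyl cyclases, 2 rose and 2 fell with mismatch (0 and 2 with spike-in scaling). CACNB3, a channel beta subunit of the kind that RRAD binds, rose by 0.48 (lost with spike-in scaling), and CAMK2D fell by 1.00 and differed by -1.40 between match and mismatch.

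**Figure D5:**
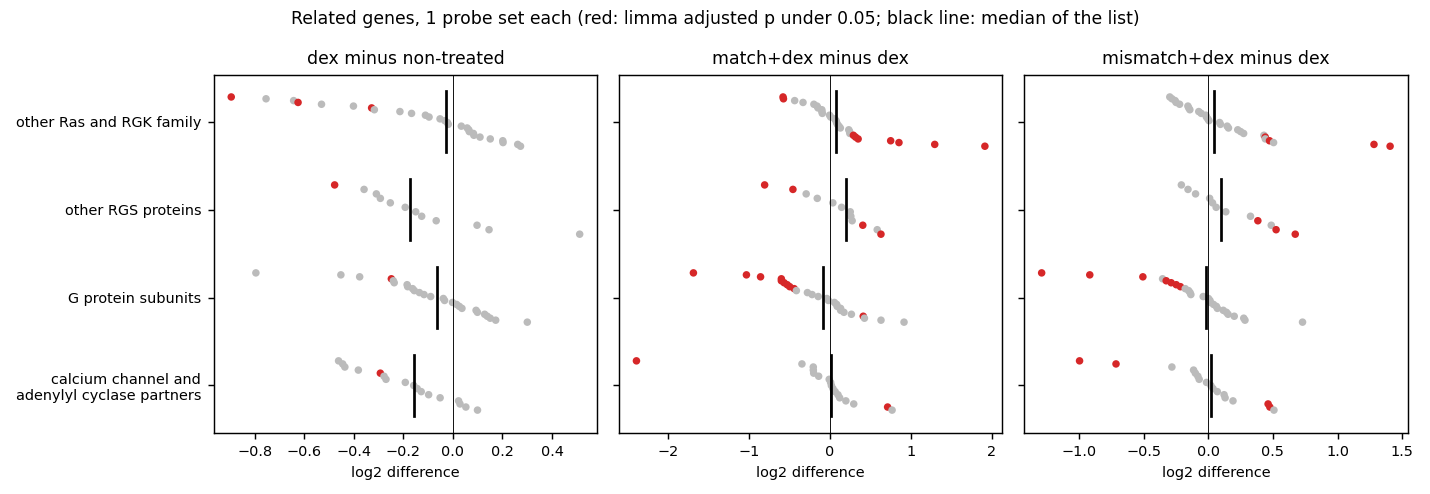
Difference on the log2(signal + 16) scale of each tested gene in 4 lists of related genes, in 3 panels for dexamethasone against non-treated cells and for match and mismatch against dexamethasone, with called genes in red and the list median as a black line. In the first panel GEM (-0.89) is the lowest called gene, and in the third RHEBL1 (1.41) and RAP2B (1.28) are the highest.

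The genes whose pattern over the 15 arrays was most like each member were found by Pearson's r on the log2 scale among 1954 genes (1955 for RND3) whose group means spanned at least 1. The arrays share 5 groups and 1 scaling, so these values only describe. RGS2 was most like TSC22D3, which encodes the glucocorticoid-induced leucine zipper GILZ (r = 0.976), TMEM43 (0.974) and PYGB (0.969). RHOB was nearest to the zinc finger factor KLF6 (0.966), to RGS2 (0.956) and to the kinase SGK1 (0.948). RRAD was closest to SLC4A11 (0.984), NOL3 (0.980) and BAIAP2 (0.978). The nearest patterns for RHOU were ARHGEF37 (0.977), LGALSL (0.970) and ARHGEF26 (0.961). RASD1 ran with BEX2 (0.984), the neurofilament gene NEFL (0.982) and RAP2B (0.978). For RND3 the nearest were CMIP (0.933), GJA1 (0.919) and JAG1 (0.894). RND1 had no neighbour as close, with TCIM (0.839), PCED1B (0.780) and PHLDA1 (0.771).

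The order of the group means on the main probe sets thus differed by member, and the second probe sets of RHOB and RHOU gave other orders. For RGS2 it ran, from low to high, non-treated, mifepristone, mismatch, match and dexamethasone, and only mismatch and match overlapped among neighbours. For RHOB the lowest pair, mifepristone and non-treated, overlapped, then came mismatch, and match overlapped dexamethasone. For RHOU the lowest 3, mifepristone, match and non-treated, overlapped between neighbours, and dexamethasone and mismatch stood apart above them. RRAD ran from an overlapping low pair through match and dexamethasone to mismatch, and RASD1 had 3 overlapping low groups and 2 overlapping high ones. For RND1 the order was mismatch, dexamethasone, non-treated, match and mifepristone, and among neighbours only dexamethasone and non-treated cells did not overlap. For RND3 mismatch stood alone at the bottom, and mifepristone, match, dexamethasone and non-treated cells followed, each overlapping the next.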

How the data were processed

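For each of the 15 arrays the authors deposited 1 linear intensity signal per probe set, made with MAS5 per the submitters' processing notes. Neither its version nor its scaling target appears in the sources used here, and detection calls were not used here. Array medians of the deposited signals ran from 14.8 to 24.5. Signals were therefore quantile normalized, a pseudocount of 16 was added and log2 was taken. After control probe sets had been dropped, limma 3.58.1 (R 4.3.3) was run once on the whole table with a variance trend, and p-values were adjusted over the 39744 tested probe sets. The fit was checked on simulated data. Genes were named from the platform's probe annotation, old in part. The main probe set of a gene has no second symbol, and those whose names end in _x_at were taken last, then the brightest was used. The rule named all probe sets of the members, up to 3 called genes per list and comparison with the smallest adjusted p, of which some are printed (2 lists are not reported here), and the 3 genes most like each member. Members, lists and tests were chosen with earlier results of these data known. The 26 other settings covered scaling, pseudocount, filter, variance trend, the arrays fitted, a replicate block and leaving out each array. The number of arrays limits the precision.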

Additional observations from a re-analysis of the deposited data

How the results depend on the processing

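Over 26 other settings, 1957 of 2080 values of the members' probe sets kept their direction and their side of the threshold, 46 were no longer past it and 22 came past it. A further 55 values, in 21 of 80 differences, turned their direction, each of a difference not called in the reported fit and not called under that setting. Counts of called probe sets moved most with the scaling, and the cause was not tested. With the signals as deposited the counts were 814 for dexamethasone against non-treated cells, 8142 for mifepristone against dexamethasone (7910 higher), 7978 for match against dexamethasone and 3094 between the polyamides (556 higher and 2538 lower with match). Spike-in scaling gave 767, 12826 (12604 higher), 4627 for mismatch against dexamethasone and 2844 between the polyamides (2132 higher and 712 lower). The split also moved by over 10 percentage points for dexamethasone against non-treated cells as deposited (564 higher, 250 lower). It did so for match with median scaling (3774 higher, 7235 lower) or spike-in scaling (8212 and 2668). The same held for mismatch as deposited (4474 and 1763) and between the polyamides with median scaling (1280 and 5228). The median of all tested probe sets shifted by 0.34 (as deposited) and 0.39 (spike-in scaling) for mifepristone, by 0.20 for match and 0.15 between the polyamides with spike-in scaling, and by 0.12 for mismatch as deposited. Without 1 array at a time, the counts ran from 1430 to 2031 for dexamethasone, 1006 to 1483 for mifepristone, 10811 to 12334 for match, 7530 to 9370 for mismatch and 5384 to 6756 between the polyamides.

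With the replicate number as a block the counts were 1922, 1433, 12239, 9110 and 6712 in the same order. Arrays with the same number did not detectably deviate together (correlations of -0.08 to 0.12, with 1 of 15 over 0.1). No pairing by number was seen, but these correlations cannot tell whether such arrays were prepared together.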
